A study of Arabidopsis thaliana with 8 samples.

Results

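The genes described here are 66 genes of *Arabidopsis thaliana* whose short description in the deposited tables names a UDP-glycosyltransferase, a UDP-glucosyltransferase or a UDP-glucose enzyme. They were chosen by those words alone, from the 7948 genes listed in any of 5 comparison tables. The same words matched 72 genes, of which 6 named genes, most of them known for flavonoid decoration, were left out by the rule. Because a table lists a gene at an adjusted p under 0.05 and omits the rest, each of the 66 passed that test somewhere, and 137 annotated protein-coding genes carry these words in their RefSeq product name, of which 65 are in a table. Seedlings grown in unbroken white light on Gamborg B5 medium were harvested whole at day 7, and poly-A RNA of each genotype was sequenced as 2 libraries, called biological replicates by the series. The genotypes were *nf-yc triple* (the alleles *nf-yc3-1*, *nf-yc4-1* and also *nf-yc9-1*), *hy5*, *nf-yc triple hy5* (called the quadruple mutant), and their parental line Col-0, the ecotype of every genotype. The study describes *nf-yc3-1* and *nf-yc4-1* as strong knockdowns and *nf-yc9-1* as an allele that keeps part of its expression, so *nf-yc triple* is no complete loss of the 3 genes. The *hy5* line is a T-DNA insertion line of the SALK collection. The tables compare each mutant with Col-0, and the quadruple mutant with each of its parental mutants.

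UDP-glycosyltransferases move a sugar from a UDP-sugar onto a small acceptor molecule, which usually makes it more soluble, less reactive and ready for storage in the vacuole. In plants, family 1 of these enzymes is large and acts on hormones, phenylpropanoids, defence compounds and foreign chemicals, and many of its genes lie in tandem arrays. HY5 is a bZIP transcription factor that promotes seedling development in light, and NF-YC proteins are subunits of the NF-Y complex, which binds CCAAT boxes.

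The name UDP-glycosyltransferase does not cover every gene the description words pick. Of the 66 genes, 36 are described only as superfamily proteins, and 43 have a symbol in the reference. Some are not family 1 enzymes at all, among them GBSS1 (granule-bound starch synthase), DGD1 (galactolipid synthesis), UGT80B1 (sterol glucosylation), EBS1 (quality control of glycoproteins in the endoplasmic reticulum) and the UDP-glucose dehydrogenases and pyrophosphorylases. Others touch flavonoids, since AT5G17040 lies beside *UGT78D2* and is 85.1% identical to *UGT78D3* in coding sequence, and the UGT73B and UGT73C enzymes are known to accept flavonols in vitro. A strict form of the 44-residue signature of family 1 was found in 32 of the 66 encoded proteins. It misses well-known family 1 enzymes such as UGT84A2, UGT74F2 and UGT76B1, so it is too narrow to define the family.

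The values are log2 fold changes, with the genotype named first on top, and the mean log2 CPM (read counts scaled to library size) of the pair, from which the level of both genotypes was worked out. Levels of a genotype taken from 2 tables differed by at most 0.09 on the log2 scale over the 66 genes. These CPM values are not per length, so they are compared between genotypes and never between genes. No value per library was analysed, so no level or fold change has an SD, and the adjusted p-values are those of the authors' edgeR comparisons. A gene is called below when its adjusted p was under 0.05 and its change at least 1.5-fold, which is 0.585 on the log2 scale. Absence from a table can mean that a gene was not tested or that its adjusted p was too high.

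In *nf-yc triple* against Col-0, 26 of the 66 genes were listed, 7 higher and 19 lower, where 15.2% of the 19177 genes tested were listed. Of these, 3 were called higher and 11 lower, against 3.36% and 2.59% of all genes tested. In *hy5* against Col-0, 33 were listed (background 25.5%), with 8 called higher and 5 lower, beside 7.13% and 4.9% of all genes. In the quadruple mutant against Col-0, 41 were listed (background 27.1%), with 14 called higher and 9 lower, beside 7.67% and 7.03%. Shares of the 66 cannot be read against these backgrounds of genes tested, since a gene had to be in some table to be among them. The 7948 genes in any table met the same condition. Of those 7948, 2913 were listed in *nf-yc triple*, with 645 called higher and 496 lower. In *hy5* 4888 were listed (1368 called higher and 941 lower), and in the quadruple mutant 5180 (1467 and 1344). The split by direction can be set beside that of all listed genes.

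The fall prevailed in *nf-yc triple*. There 73.1% of the listed genes of the set were lower, with a median log2 fold change of -0.52, whereas 52.4% of all listed genes were lower, with a median of -0.24. In *hy5*, 57.6% were lower (median -0.28), where all listed genes had 47.2% lower and a median of 0.27. In the quadruple mutant against Col-0 the set was evenly split, with 48.8% lower and a median of 0.23, beside 50.2% and -0.22 over all listed genes. These are descriptions of the listed genes and no test was made of them.

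The quadruple mutant was also set against each parental mutant. Against *nf-yc triple*, 37 genes were listed (background 22.4%), of which 10 were called higher and 11 lower (backgrounds 5.51% and 4.75%). Their median was -0.37 and 56.8% were lower, while all listed genes had a median of 0.25 and 47.2% lower. Against *hy5*, 9 genes were listed (background 4.76%), of which 1 was called higher and 4 lower (backgrounds 0.563% and 1.26%), and 8 of the 9 were lower. Of the 7948 genes in any table, 4311 were listed against *nf-yc triple* (1061 called higher and 913 lower) and 920 against *hy5* (109 and 243). Counted over tables, 23 of the 66 genes were in 1 table, 18 in 2, 16 in 3, 6 in 4 and 3 in all 5. In all, 39 genes were called in at least 1 table. As each of the 66 had to be listed somewhere to be in the set, the genes tested are no background for this count. The same count was not made over the 7948 genes in any table, so its share cannot be set beside theirs.

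**Figure D1:**
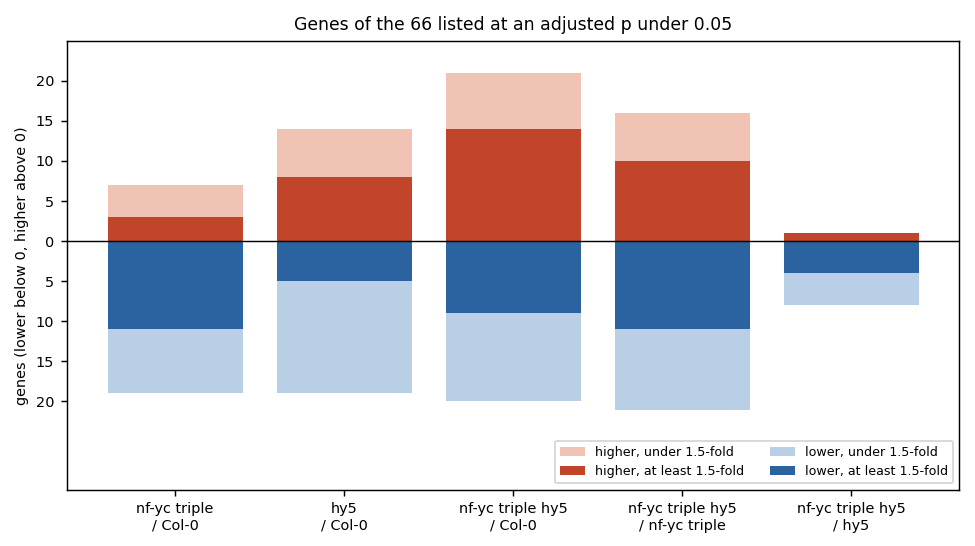
Number of the 66 genes listed at an adjusted p under 0.05 in each of the 5 comparisons, with genes higher in the first genotype drawn above 0 and genes lower drawn below it. Dark bars are genes changed at least 1.5-fold and pale bars those changed less, and *nf-yc triple* against Col-0 shows 3 dark genes above the line and 11 below it.

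**Figure D2:**
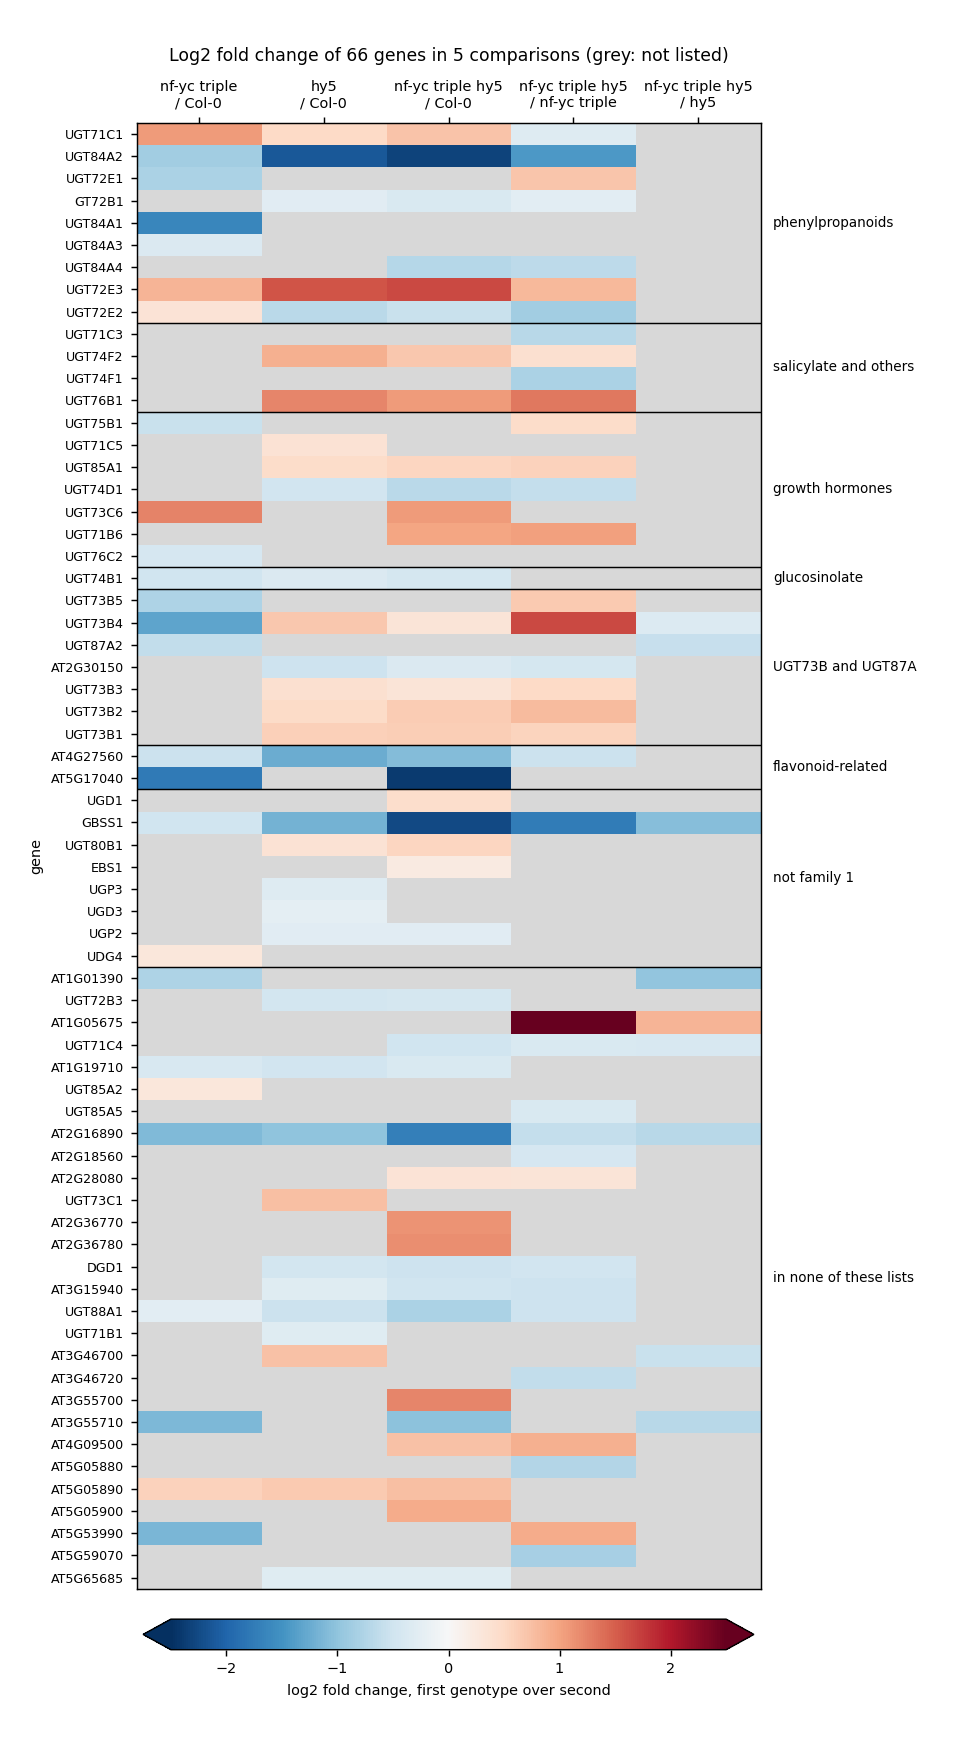
Log2 fold change of each of the 66 genes (rows, grouped by function list) in the 5 comparisons (columns), red for higher and blue for lower in the first genotype, on a scale that saturates at 2.5. Grey cells are genes absent from that table, and GBSS1, AT2G16890 and UGT73B4 are the 3 rows with a value in every column.

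The genes called in the same direction in all 3 mutants numbered 3, and these comparisons share the Col-0 libraries. This count was not made over all genes, with or without the fold threshold, so it has no background. UGT84A2 and AT2G16890 fell and UGT72E3 rose. UGT84A2 makes sinapoylglucose, the precursor of the sinapate esters that shield leaves from ultraviolet light, UGT72E3 glucosylates monolignols and their precursors, and AT2G16890 has no named function in the reference. Their upstream regions are shown because each of these genes was called in every mutant, and that of UGT76B1, described further on, is added as a gene that rose wherever HY5 was lacking. Each run is the 250 bases before the annotated gene start on the plus strand of TAIR10.1 (RefSeq), in lower case, with matches on either strand to the letters ACGTG (the core of a G-box), to the CCAAT box and to the bZIP motif TGACG in capitals.
UGT84A2, chr3:7595430-7595679: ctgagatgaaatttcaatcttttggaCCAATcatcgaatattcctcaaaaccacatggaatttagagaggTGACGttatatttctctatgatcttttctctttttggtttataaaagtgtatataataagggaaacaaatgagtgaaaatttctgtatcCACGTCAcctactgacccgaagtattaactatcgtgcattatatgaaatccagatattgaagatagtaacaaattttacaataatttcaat
AT2G16890, chr2:7316539-7316788: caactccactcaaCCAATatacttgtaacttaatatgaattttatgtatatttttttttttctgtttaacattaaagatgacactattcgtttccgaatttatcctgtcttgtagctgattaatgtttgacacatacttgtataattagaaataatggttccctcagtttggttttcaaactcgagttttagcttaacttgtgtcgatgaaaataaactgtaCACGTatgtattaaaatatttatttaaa
UGT72E3, chr5:9234350-9234599: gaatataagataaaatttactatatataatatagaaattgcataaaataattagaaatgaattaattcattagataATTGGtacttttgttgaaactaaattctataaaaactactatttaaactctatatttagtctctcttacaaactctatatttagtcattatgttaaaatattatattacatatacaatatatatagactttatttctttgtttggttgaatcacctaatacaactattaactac
UGT76B1, chr3:3556304-3556553: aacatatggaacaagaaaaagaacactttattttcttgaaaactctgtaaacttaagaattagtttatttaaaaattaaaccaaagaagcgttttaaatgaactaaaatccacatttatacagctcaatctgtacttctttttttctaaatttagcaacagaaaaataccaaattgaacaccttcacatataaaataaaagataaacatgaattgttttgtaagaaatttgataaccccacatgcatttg

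The region before UGT84A2 holds CCAAT 224 bases before the start, TGACG at 180 and, 91 bases before the start, a reverse ACGTG that runs into a reverse TGACG at 89. AT2G16890 has CCAAT at 237 and a reverse ACGTG at 28, UGT72E3 has only a reverse CCAAT at 174, and UGT76B1 has none of the 3. None of the 4 holds the G-box CACGTG in this window. Over the 66 genes, ACGTG was found in the 250 bases upstream of 18 genes (27.3%), TGACG in 18 (27.3%), CCAAT in 25 (37.9%) and CACGTG in 3 (4.55%). Among all 27443 upstream regions of that length, the shares were 22.9%, 18.6%, 46% and 6.49% in the same order. A match says only that the letters are present, and ACGTG is part of CACGTG. Some regions of the 66 genes overlap another annotated gene, among them those of UGT73B4 and AT3G15940, which both hold CACGTG. The shares were not restricted to regions free of other genes, whereas the 4 printed regions overlap none.

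UGT84A2 (AT3G21560, chr3:7595680-7597607, plus strand) had levels of 55.1 CPM in *nf-yc triple*, 22.8 CPM in *hy5* and 20.5 CPM in the quadruple mutant, against 99.3 CPM in Col-0. Its log2 fold change against Col-0 was -0.87 in *nf-yc triple*, -2.12 in *hy5* (4.34-fold lower, edgeR adjusted p = 2.6e-102) and -2.32 in the quadruple mutant. The quadruple mutant was lower than *nf-yc triple* by -1.44 and was not listed against *hy5*. The level thus stood lowest in both lines that lack HY5.

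AT2G16890 (chr2:7316789-7319243, plus strand) had 9.34 CPM in *nf-yc triple*, 10 CPM in *hy5* and 6.29 CPM in the quadruple mutant, against 19.6 CPM in Col-0. Its log2 fold changes against Col-0 were -1.10, -1.01 and -1.71 in that order. It also fell in the quadruple mutant against *nf-yc triple* (-0.59, adjusted p = 0.0096) and against *hy5* (-0.69, adjusted p = 0.011). It was thus lower in each parental mutant than in Col-0, and lower again in the quadruple mutant. The change against *nf-yc triple* lies just past 1.5-fold.

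UGT72E3 (AT5G26310, chr5:9234600-9236408, plus strand) had 7.91 CPM in *nf-yc triple*, 13.1 CPM in *hy5* and 13.9 CPM in the quadruple mutant, against 4.39 CPM in Col-0. The log2 fold changes were 0.84, 1.58 and 1.65, and the quadruple mutant exceeded *nf-yc triple* by 0.81. Without a fold threshold, 7 genes were lower in all 3 mutants (AT1G19710, UGT74B1, GBSS1, AT2G16890, UGT88A1, UGT84A2 and AT4G27560) and 3 were higher (UGT71C1, AT5G05890 and UGT72E3). AT5G05890 was called higher in *hy5* (0.65) and in the quadruple mutant (0.75) and stood just under 1.5-fold in *nf-yc triple* (0.58), with 23.8 CPM in *hy5*, 25.9 CPM in the quadruple mutant and 22.6 CPM in *nf-yc triple*, against 15.2 CPM in Col-0.

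**Figure D3:**
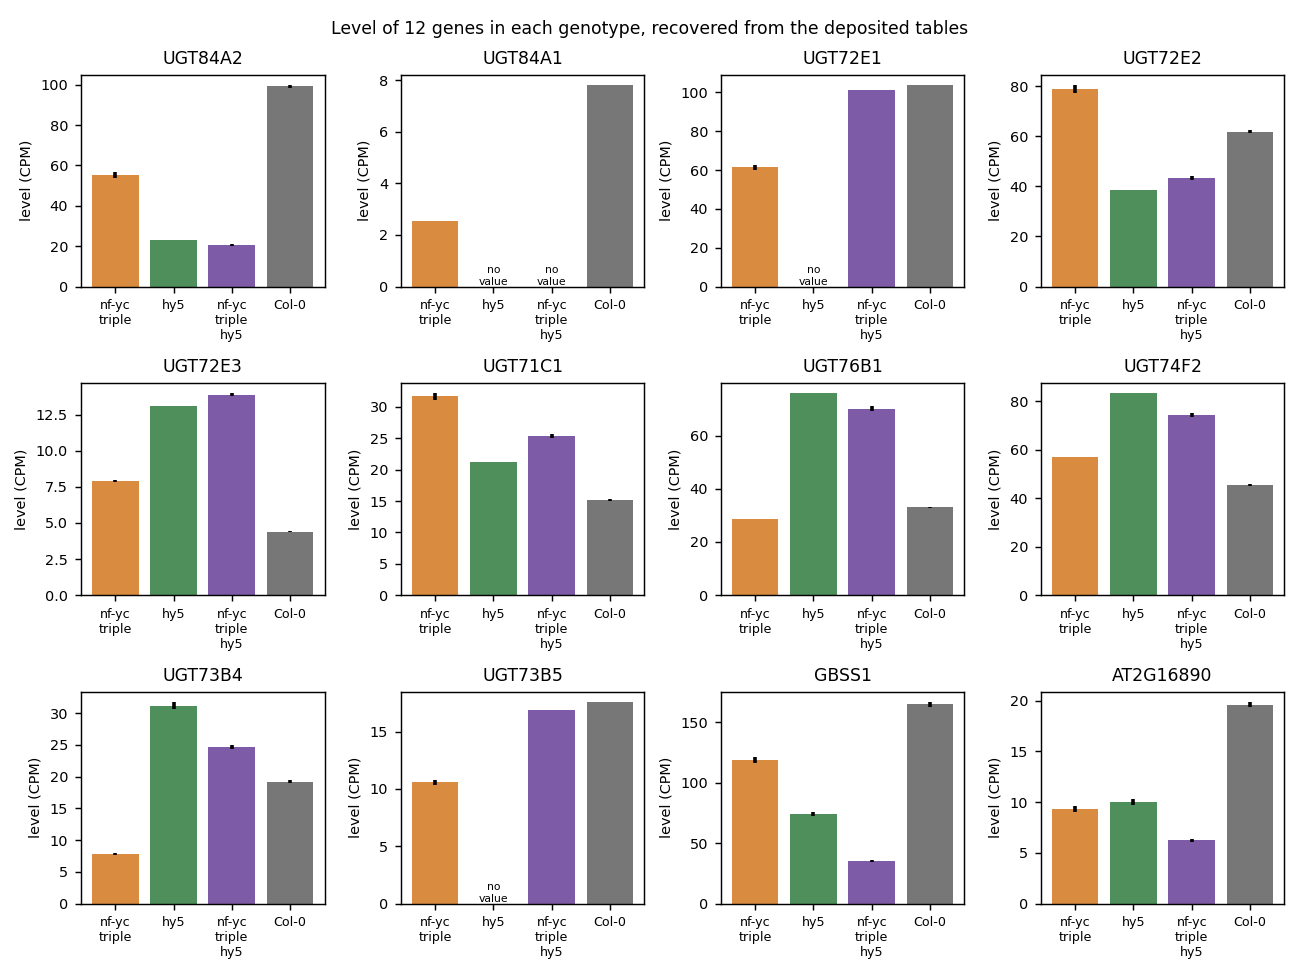
Level in CPM of 12 genes in *nf-yc triple*, *hy5*, the quadruple mutant and Col-0, recovered from the deposited tables, with 1 panel a gene and axes that start at 0. Black marks span the lowest and highest value a genotype had over the tables that list the gene, not a replicate error, and the bars of UGT84A2 stand at 55.1, 22.8 and 20.5 CPM in the mutants and 99.3 CPM in Col-0.

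The phenylpropanoid list holds 9 genes of monolignol, hydroxycinnamate and scopoletin glucosylation, and all 9 are among the 66. In *nf-yc triple* against Col-0, 2 were called higher and 3 lower, in *hy5* 1 and 2, and in the quadruple mutant 2 and 2. The median of the listed genes was -0.37, -0.28 and -0.46 in these 3 tables, beside -0.24, 0.27 and -0.22 over all listed genes. None was listed in the quadruple mutant against *hy5*.

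The 3 enzymes of the UGT72E group, which glucosylate lignin precursors, did not move together. UGT72E1 had 61.4 CPM in *nf-yc triple* and 101 CPM in the quadruple mutant, against 104 CPM in Col-0. It fell in *nf-yc triple* (log2 fold change -0.79, adjusted p = 3.4e-17) and rose in the quadruple mutant over *nf-yc triple* (0.69, adjusted p = 2.5e-08), and it is in no other table. UGT72E2 had 79 CPM in *nf-yc triple*, 38.5 CPM in *hy5* and 43.4 CPM in the quadruple mutant, against 61.8 CPM in Col-0. Its log2 fold change was 0.34 in *nf-yc triple*, under 1.5-fold, and -0.68 in *hy5*, and the quadruple mutant lay -0.87 below *nf-yc triple*. UGT72E2 and UGT72E3 are 89.5% identical in coding sequence, and in *hy5* the fall of UGT72E2 stood beside the rise of UGT72E3.

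The UGT84A enzymes make glucose esters of hydroxycinnamates, and every listed value of the 4 genes was negative. UGT84A1, UGT84A3 and UGT84A4 lie side by side on chromosome 4, and UGT84A2 lies on chromosome 3. UGT84A1 had 2.54 CPM in *nf-yc triple* and 7.83 CPM in Col-0, a 3.08-fold fall (log2 fold change -1.62, adjusted p = 2.1e-08), and is in no other table. UGT84A3 was lower by -0.37 in *nf-yc triple*, under 1.5-fold. UGT84A4 fell in the quadruple mutant by -0.71 against Col-0 and by -0.65 against *nf-yc triple*, with 6.8 CPM beside 10.9 CPM in Col-0 and 10.8 CPM in *nf-yc triple*.

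Of the remaining phenylpropanoid genes, GT72B1, which also glucosylates chlorinated phenols, was lower by -0.28 in *hy5*, -0.37 in the quadruple mutant and -0.26 in the quadruple mutant against *nf-yc triple*, none of them 1.5-fold. UGT71C1, which glucosylates caffeic acid and scopoletin in vitro, was higher in every mutant, at 31.7 CPM in *nf-yc triple*, 21.3 CPM in *hy5* and 25.4 CPM in the quadruple mutant, against 15.1 CPM in Col-0. The rise was largest in *nf-yc triple* (1.05, adjusted p = 5.7e-15), was 0.50 in *hy5* and 0.72 in the quadruple mutant, and the quadruple mutant lay -0.33 below *nf-yc triple* (adjusted p = 0.032).

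Conjugation of salicylate and related defence signals was represented by UGT74F1, UGT74F2, UGT76B1 and UGT71C3, which are 4 of the 5 genes of that list. None was listed in *nf-yc triple* against Col-0 or in the quadruple mutant against *hy5*. UGT76B1, which glucosylates isoleucic acid, salicylate and N-hydroxypipecolate, had 28.6 CPM in *nf-yc triple*, 76 CPM in *hy5* and 70.1 CPM in the quadruple mutant, against 33 CPM in Col-0. It rose 2.32-fold in *hy5* (1.21, adjusted p = 1.7e-35), by 1.06 in the quadruple mutant and by 1.31 in the quadruple mutant against *nf-yc triple*. Both lines without HY5 were thus above both lines with it.

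UGT74F2, which makes the glucose ester of salicylate, had 56.8 CPM in *nf-yc triple*, 83.3 CPM in *hy5* and 74.2 CPM in the quadruple mutant, against 45.5 CPM in Col-0. It rose by 0.88 in *hy5* and by 0.68 in the quadruple mutant, and was 0.41 higher in the quadruple mutant than in *nf-yc triple*. Its tandem neighbour UGT74F1, which makes the glucoside and is 84.2% identical, moved the other way in the 1 table that lists it, with 2.76 CPM in the quadruple mutant and 4.78 CPM in *nf-yc triple* (-0.79, adjusted p = 0.029). UGT71C3, which glucosylates methyl salicylate, also fell there (-0.69, adjusted p = 0.0051), to 5.2 CPM in the quadruple mutant against 8.41 CPM in *nf-yc triple*. Its neighbour UGT71C4 gave -0.37 in that table, under 1.5-fold.

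Of 12 genes for conjugation of auxin, cytokinin, brassinosteroid and abscisic acid, 10 were in a table and 7 are among the 66. UGT74D1, which glucosylates auxin and its oxidised form, had 77.2 CPM in *nf-yc triple*, 56 CPM in *hy5* and 50.6 CPM in the quadruple mutant, against 78.8 CPM in Col-0. It fell by -0.67 in the quadruple mutant (adjusted p = 5e-11) and by -0.59 against *nf-yc triple*, and was lower by -0.48 in *hy5*. UGT75B1, which also acts on auxin in vitro, was lower by -0.55 in *nf-yc triple* and higher by 0.45 in the quadruple mutant against *nf-yc triple*, neither of them 1.5-fold. These are the auxin genes of the set.

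Among the other hormone genes, UGT85A1, which makes zeatin O-glucoside, was higher by 0.46 in *hy5*, 0.53 in the quadruple mutant and 0.57 in the quadruple mutant against *nf-yc triple*, each under 1.5-fold. UGT76C2, a cytokinin N-glucosyltransferase, was lower by -0.42 in *nf-yc triple*. For abscisic acid, UGT71B6 had 3.29 CPM in the quadruple mutant, against 1.62 CPM in *nf-yc triple* and 1.64 CPM in Col-0 (log2 fold changes 1.03 and 0.99), and UGT71C5 was 0.37 higher in *hy5*. UGT73C6, which acts on brassinosteroids and on flavonols, had 3.42 CPM in *nf-yc triple* and 3.16 CPM in the quadruple mutant, against 1.48 CPM in Col-0 (1.24 and 1.07). UGT74B1, which adds the glucose in glucosinolate synthesis, was lower in all 3 mutants by -0.50, -0.35 and -0.44, none of them 1.5-fold.

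The other 3 listed hormone genes have descriptions that escape the rule. IAGLU, an auxin glucosyltransferase, had log2 fold changes of -0.61 in *nf-yc triple*, -0.30 in *hy5* and -0.82 in the quadruple mutant. DOGT1, which acts on brassinosteroids, gave 1.14 in *hy5* and 0.96 in the quadruple mutant. UGT74E2, which acts on the auxin indole-3-butyric acid, had 2.07 CPM in *nf-yc triple*, 14.1 CPM in *hy5* and 7.12 CPM in the quadruple mutant, against 7.06 CPM in Col-0.

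UGT74E2 matters here because its neighbour AT1G05675, a member of the set (chr1:1701116-1702749, minus strand), is 89.5% identical to it. AT1G05675 had the largest rise of the set, 8.04-fold in the quadruple mutant against *nf-yc triple* (3.01, adjusted p = 2.2e-23). It also rose against *hy5* (0.84, adjusted p = 0.0016). Its levels were 8.96 CPM in the quadruple mutant, against 1.11 CPM in *nf-yc triple* and 5.01 CPM in *hy5*. No comparison with Col-0 lists it, although *nf-yc triple* and the quadruple mutant lay 8.04-fold apart. Its level in Col-0 and the reason for this absence are unknown, so its values are to be read with caution. UGT74E2 gave 1.75 against *nf-yc triple* and -1.02 against *hy5*, so the 2 neighbours went the same way against *nf-yc triple* and opposite ways against *hy5*.

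The UGT73B and UGT87A list holds 7 genes known to respond to stress, all of them in the set. In *nf-yc triple* against Col-0, 3 were listed and all 3 fell, with a median of -0.77. In *hy5*, 4 of the 5 listed were higher, with a median of 0.47, and in the quadruple mutant against *nf-yc triple* 5 of 6 were higher, with a median of 0.61. The medians over all listed genes were -0.24, 0.27 and 0.25 in these tables.

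UGT73B4 was the only gene of the 66 called in opposite directions in *nf-yc triple* and *hy5*. It had 7.78 CPM in *nf-yc triple*, 31.2 CPM in *hy5* and 24.7 CPM in the quadruple mutant, against 19.2 CPM in Col-0. The log2 fold changes against Col-0 were -1.32 (adjusted p = 5e-13), 0.68 (adjusted p = 5.3e-08) and 0.32. The quadruple mutant was 3.13-fold above *nf-yc triple* (1.65, adjusted p = 5.8e-23) and -0.34 below *hy5*. UGT73B5 had 10.6 CPM in *nf-yc triple* and 16.9 CPM in the quadruple mutant, against 17.6 CPM in Col-0, with log2 fold changes of -0.77 in *nf-yc triple* and 0.65 in the quadruple mutant against *nf-yc triple*. The coding sequences are 89.8% identical and the annotated UGT73B5 gene (chr2:6758430-6763501) spans UGT73B4 (chr2:6761635-6763500) on the same strand, so reads could have been split between them and both sets of values are uncertain.

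Together with UGT72E1 and AT5G53990, these made 4 genes that fell in *nf-yc triple* and rose in the quadruple mutant against *nf-yc triple*, while 0 of the 66 did the reverse at 1.5-fold. Neither count was made over all genes. Since 11 of the 66 were called lower in *nf-yc triple* and 3 higher, the split is not read as a trait of the set. AT5G53990, of no named function, had 1.66 CPM in *nf-yc triple* and 3.26 CPM in the quadruple mutant, against 3.58 CPM in Col-0 (-1.15 and 0.93). Both tables use the *nf-yc triple* libraries, so a low value in those libraries would move a gene in both. Without a fold threshold UGT75B1 joined this group, and UGT71C1 and UGT72E2 were higher in *nf-yc triple* and lower in the quadruple mutant against it.

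The array of UGT73B1, UGT73B2 and UGT73B3 on chromosome 4 (chr4:16343057-16350203) was higher wherever HY5 was lacking. UGT73B1 had 52.6 CPM in *nf-yc triple*, 73.2 CPM in *hy5* and 76.8 CPM in the quadruple mutant, against 48.9 CPM in Col-0. UGT73B2 had 37.1, 55.6 and 63.5 CPM in the mutants in that order, against 40.4 CPM in Col-0. UGT73B3 had 18.4, 26.1 and 25.5 CPM, against 19.9 CPM in Col-0. The log2 fold changes lay between 0.40 and 0.59 in *hy5*, between 0.33 and 0.63 in the quadruple mutant and between 0.49 and 0.80 in the quadruple mutant against *nf-yc triple*. Those of UGT73B1 in *hy5* and of UGT73B1 and UGT73B2 in the quadruple mutant passed 1.5-fold, as did UGT73B2 against *nf-yc triple*. UGT73B2 and UGT73B3 are 88.9% identical.

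UGT87A2, known for a part in flowering time, had 15 CPM in *nf-yc triple*, 29.7 CPM in *hy5* and 19.8 CPM in the quadruple mutant, against 23 CPM in Col-0. It fell in *nf-yc triple* by -0.62 and was -0.58 lower in the quadruple mutant than in *hy5*, just under 1.5-fold. Its neighbour AT2G30150 was listed in the other 3 tables, lower by -0.52 in *hy5*, -0.37 in the quadruple mutant and -0.43 in the quadruple mutant against *nf-yc triple*. The pair thus has no table in common.

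The list of other flavonoid-related genes, which leaves out the UGT73B and UGT73C enzymes given elsewhere, holds 6 genes, of which AT5G17040 and AT4G27560 are among the 66. AT5G17040 had 1.41 CPM in *nf-yc triple* and 0.949 CPM in the quadruple mutant, against 4.9 CPM in Col-0. The fall was -1.78 in *nf-yc triple* and 5.24-fold in the quadruple mutant (-2.39, adjusted p = 3.1e-09), the lowest value of the set. AT4G27560 had 16.6 CPM in *nf-yc triple*, 9.98 CPM in *hy5* and 11.5 CPM in the quadruple mutant, against 23.7 CPM in Col-0 (-0.54, -1.25 and -1.09), and is 96% identical to its neighbour AT4G27570, so its values are uncertain. Each of the 6 genes the rule leaves out was lower in every table that lists it, between -0.41 and -2.88.

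The list of enzymes outside family 1 holds 17 genes, of which 12 were in a table and 8 are among the 66. GBSS1, which makes amylose, changed most of the 8. It had 119 CPM in *nf-yc triple*, 74.3 CPM in *hy5* and 35.6 CPM in the quadruple mutant, against 165 CPM in Col-0. The log2 fold changes against Col-0 were -0.50, -1.18 and -2.26 (adjusted p = 2e-08, 4.8e-40 and 2.1e-96). The quadruple mutant was below *nf-yc triple* by -1.76 and below *hy5* by -1.07 (adjusted p = 9.5e-73 and 2.6e-22). GBSS1 was thus lower in each mutant, lowest in the quadruple mutant, and lower after loss of either factor in either background.

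The other 7 of the 8 changed by less than 1.5-fold. UGT80B1 was higher by 0.36 in *hy5* and 0.54 in the quadruple mutant, and EBS1 by 0.23 and UGD1 by 0.45 in the quadruple mutant. UGP2 and UGP3, which make UDP-glucose, were lower in *hy5* by -0.28 and -0.32. UGD3 and UDG4, which make UDP-glucuronate, gave -0.25 in *hy5* and 0.29 in *nf-yc triple*. DGD1, outside that list, was lower by -0.46 in *hy5*, -0.52 in the quadruple mutant and -0.49 in the quadruple mutant against *nf-yc triple*.

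The supply of UDP-sugars was read from a list of 34 genes, of which 21 were in a table and 5 are members. In *nf-yc triple* against Col-0, 5 of the 8 listed were higher, with a median of 0.28 beside -0.24 over all listed genes, although 2 were called lower and 0 higher. In *hy5* against Col-0, 11 of the 14 listed were lower, with a median of -0.32 beside 0.27 over all listed genes, and 3 were called lower and 1 higher. In the quadruple mutant against Col-0, 7 of 11 were lower. The sucrose synthases SUS3 and SUS4, which release UDP-glucose from sucrose, fell in all 3 mutants, by -0.77, -1.35 and -1.71 for SUS3 and by -0.79, -1.88 and -1.98 for SUS4. The epimerase gene UGE1, of UDP-galactose supply, was higher in all 3, at 0.38, 0.90 and 0.92.

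The remaining genes have no assigned role here and are given by their place in the genome. Of the 66 genes, 41 lie in 20 tandem arrays, taken as family genes within 10000 bases of each other. Family genes here are those matched by the description words, besides UGT74E2, so genes whose names escape the words, such as DOGT1, were not placed in arrays. On chromosome 2, UGT73C1, AT2G36770, AT2G36780 and UGT73C6 share an array with UGT73C2, which is in no table, and each listed value of them was positive. UGT73C1 had 5.56 CPM in *hy5* and 3.3 CPM in Col-0 (0.75), and AT2G36770 and AT2G36780 had 2.9 and 3.06 CPM in the quadruple mutant, against 1.34 and 1.36 CPM in Col-0 (1.12 and 1.17). The last 2 genes are 91.3% identical and their values cannot be taken as independent.

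Neighbours on chromosome 3 moved apart. AT3G55700 had 2.33 CPM in the quadruple mutant and 1.01 CPM in Col-0 (1.21, adjusted p = 0.023). AT3G55710, next to it and 85.5% identical, had 4.1 CPM in *nf-yc triple*, 7.62 CPM in *hy5* and 4.58 CPM in the quadruple mutant, against 8.99 CPM in Col-0. It fell by -1.12 in *nf-yc triple*, by -1.02 in the quadruple mutant and by -0.70 in the quadruple mutant against *hy5*. AT3G46700 had 22.3 CPM in *hy5* against 13.2 CPM in Col-0 (0.73), and 15.6 CPM in the quadruple mutant, -0.55 below *hy5*. AT3G46720, of the same array, fell in the quadruple mutant against *nf-yc triple* (-0.62).

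On chromosome 1, AT1G01390 had 3.15 CPM in *nf-yc triple*, 7.68 CPM in *hy5* and 3.89 CPM in the quadruple mutant, against 5.36 CPM in Col-0. It fell in both tables that add the *nf-yc* mutations, by -0.77 against Col-0 (adjusted p = 0.042) and by -0.98 against *hy5*. Its neighbour UGT72B3, 83.9% identical, was lower by -0.45 in *hy5* and -0.44 in the quadruple mutant. In the UGT76C array on chromosome 5, AT5G05880 fell in the quadruple mutant against *nf-yc triple* (-0.74), and AT5G05900 rose in the quadruple mutant against Col-0 (0.92, adjusted p = 0.049).

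Of the genes not yet given, UGT88A1 had 176 CPM in *nf-yc triple*, 143 CPM in *hy5* and 123 CPM in the quadruple mutant, against 208 CPM in Col-0, and only its fall of -0.80 in the quadruple mutant passed 1.5-fold. AT4G09500 rose in the quadruple mutant against Col-0 (0.73) and against *nf-yc triple* (0.90), with 7.1 CPM beside 4.24 CPM in Col-0. AT5G59070 fell in the quadruple mutant against *nf-yc triple* (-0.83, adjusted p = 0.043). UGT71C4, AT1G19710, AT3G15940, AT5G65685, UGT71B1, UGT85A5 and AT2G18560 were lower under 1.5-fold wherever listed, between -0.30 and -0.51. UGT85A2 and AT2G28080 were higher under 1.5-fold wherever listed, between 0.28 and 0.33.

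The effect of losing HY5 can be read in 2 backgrounds from tables with no library in common, *hy5* against Col-0 and the quadruple mutant against *nf-yc triple*. Of 33 and 37 genes listed there, 20 were in both, which is 60.6% of those listed in *hy5* and 54.1% of those listed in the quadruple mutant, and 19 of the 20 had the same direction. Over all genes, 2725 were in both, which is 55.7% and 63.2% of those lists, and 98% had the same direction, so the set does not stand out in this. At 1.5-fold, which was not counted over all genes, 7 genes were called alike in both. Of these, UGT76B1, UGT72E3 and UGT73B4 rose and GBSS1, AT2G16890, UGT84A2 and UGT72E2 fell. UGT71C1 was the exception, with 0.50 in *hy5* against Col-0 and -0.33 in the quadruple mutant against *nf-yc triple*.

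**Figure D4:**
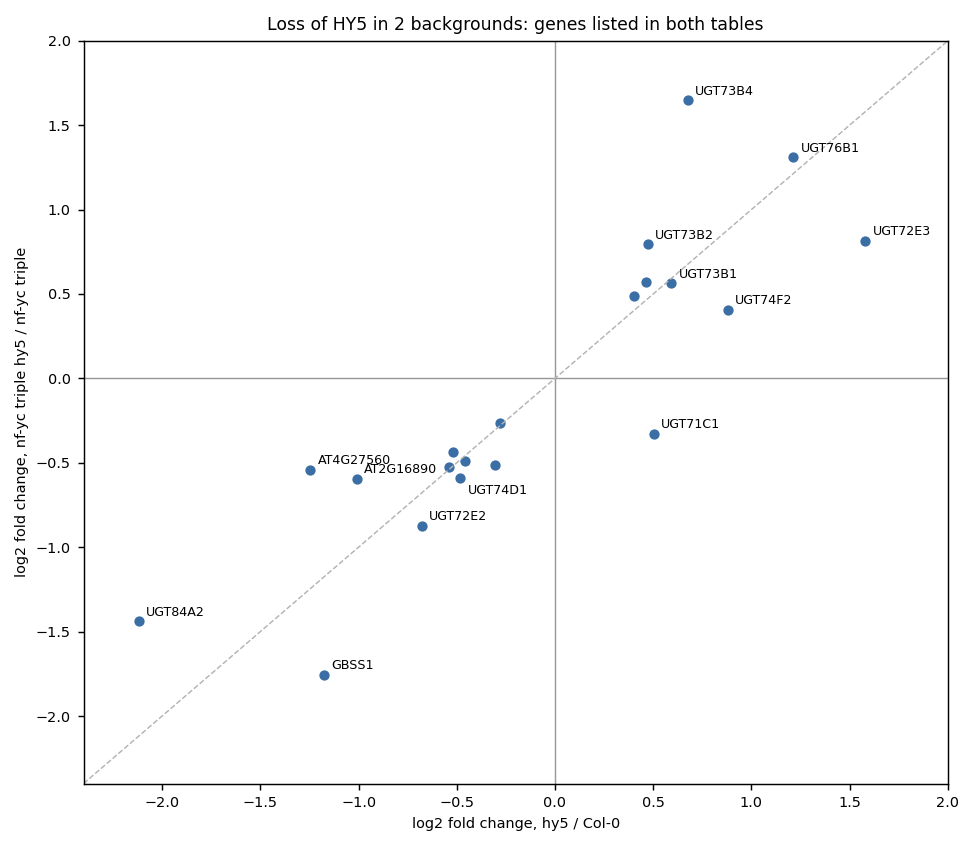
Log2 fold change in *hy5* against Col-0 (horizontal axis) and in the quadruple mutant against *nf-yc triple* (vertical axis) for the 20 genes listed in both tables, 1 point a gene, with the dashed line marking equal changes. All points have 1 sign on both axes except UGT71C1, at 0.50 and -0.33.

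The *nf-yc* mutations were read in the same way from the quadruple mutant against *hy5* and *nf-yc triple* against Col-0, which also share no library. The 6 genes in both tables, AT1G01390, GBSS1, UGT73B4, AT2G16890, UGT87A2 and AT3G55710, were lower in both. Over all genes, 483 of 523 in both tables (92.4%) had the same direction. The 6 are 66.7% of the 9 genes of the set listed against *hy5* and 23.1% of the 26 listed against Col-0, beside 56.8% and 18% over all genes. At 1.5-fold, which was not counted over all genes, AT1G01390, AT2G16890 and AT3G55710 fell in both.

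Checks on the libraries stand beside these values. The transcripts mutated in *nf-yc triple* were lower there than in Col-0, with log2 fold changes of -4.08 for NF-YC3, -0.97 for NF-YC4 and -2.29 for NF-YC9. NF-YC4 still had 22.6 CPM in *nf-yc triple*, against 45 CPM in Col-0. NF-YC9 was 0.48 higher in the quadruple mutant than in *nf-yc triple* (12.6 against 8.91 CPM), so these 2 lines differ in NF-YC9 transcript as well as in HY5. HY5 is in no table, so the tables do not check the *hy5* label. Markers of organs also moved. Of 17 root markers, 11 of the 12 listed in *nf-yc triple* were higher (median 0.96), and all 7 listed in the quadruple mutant against *nf-yc triple* were lower (median -0.94). In *hy5* 6 of 8 root markers were higher (median 0.68). Of 15 shoot markers, all 12 listed in *nf-yc triple* were lower (median -0.35), as were all 14 in *hy5* (-0.51). In the quadruple mutant all 14 listed against Col-0 were lower (-0.74), all 9 against *nf-yc triple* (-0.55) and all 8 against *hy5* (-0.63). Most of these shoot markers are photosynthesis genes, such as RBCS1A and CAB2, so they do not read the share of shoot alone. In whole seedlings, fewer cells of a type and less RNA per cell cannot be told apart, and the part of these markers in the results above was not tested.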

How the data were processed

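Whole seedlings of 4 genotypes were profiled by RNA sequencing, with 8 libraries in all. According to the study's methods and the submitters' processing notes, the authors demultiplexed reads with CASAVA 1.8.2, trimmed them in iPlant, mapped them with BWA to representative gene models of TAIR10 and compared pairs of genotypes with edgeR, with version and filters not given in the sources used here. The log2 fold changes and mean log2 CPM were used as the authors deposited them. The p-values and Benjamini-Hochberg adjusted p-values are the authors' own, and the deposited tables stop at an adjusted p of 0.05. A further column of signed fold changes, which the authors deposited as a score, was left aside because in the *nf-yc triple* table it often has the opposite sign to the log2 column. The deposited tables thus hold comparisons, and no value per library was analysed here, so depth, replicate spread and n per value are unknown. The p-values rest on 2 libraries per genotype and are not a measure of replicate spread.

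From the tables, the number of tests was worked out by inverting the Benjamini-Hochberg step (80.5% to 92% of genes gave it; 19115 to 19347 by table), and the level of each genotype from the fold change and the mean CPM. Both steps were tested on simulated data. For the levels, that test checked the arithmetic only. It did not imitate how the authors' mean CPM was computed, so it cannot show how accurate the levels are, low ones included. For the 12 sets of 3 tables that list a gene throughout, fold changes closed to within 0.012 on the log2 scale. A call needed a change of 1.5-fold besides the adjusted p. Named were the 6 highest and 6 lowest called genes per comparison, those called alike in all 3 mutants, in opposite directions, or against both parental lines, and called genes of the function lists, besides the 6 genes left out and the mutated genes. Genes that were listed but not called, and UGE1, SUS3, SUS4 and the hormone genes outside the set, were named so that every member and list is accounted for. The members and the 10 lists were chosen with earlier results of these data known. Coordinates, symbols, coding identity (BLAST 2.17.0, over at least 80% of the coding sequence) and upstream sequence come from RefSeq's annotation of TAIR10.1, which held all 66 genes and need not match the authors' gene models. Scripts ran in Python 3.11.15 with pandas 2.3.3, NumPy 2.4.6 and Biopython 1.88. Of columns without a mapped sample, 0 were used. Alternatives tried were other fold and p thresholds, a filter on mean CPM, and narrower and wider memberships.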

Additional observations from a re-analysis of the deposited data

Results flagged for a closer look

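UGT71C1 is set apart because loss of HY5 went in opposite directions in the 2 backgrounds. The log2 fold change was 0.50 in *hy5* against Col-0 and -0.33 in the quadruple mutant against *nf-yc triple*. Both values are under 1.5-fold, and the difference between them was not tested, since no value per library was analysed.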

How the results depend on the processing

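Counts are given as called higher and called lower, at 1.5-fold and an adjusted p under 0.05 unless stated. With no fold threshold they were 7 and 19 in *nf-yc triple* (against 3 and 11), 14 and 19 in *hy5* (against 8 and 5), 21 and 20 in the quadruple mutant against Col-0 (against 14 and 9), 16 and 21 against *nf-yc triple* (against 10 and 11) and 1 and 8 against *hy5* (against 1 and 4), and genes alike in all 3 mutants numbered 10 (against 3). At 2-fold they were 2 and 6, 2 and 4, 6 and 6, 4 and 2, and 0 and 1 in the same order, with 1 gene alike in all 3 mutants. The 0 is a count in the authors' edgeR calls, and 1 gene was higher there with no fold threshold. At an adjusted p of 0.01, genes called higher in the quadruple mutant against Col-0 numbered 9 and genes called lower against *hy5* 2, and with a mean log2 CPM of at least 2 the same rise numbered 8. The 32 genes with the strict family 1 signature gave fewer calls by construction: 5 lower in *nf-yc triple*, 5 higher and 1 lower in *hy5*, 8 and 1 in the quadruple mutant against Col-0, 6 and 4 against *nf-yc triple*, and 1 lower against *hy5*. The wider membership of 79 genes by the long description moved none of the 10 counts past 1.5 times. No paired analysis was possible because no value per library was analysed, and for the same reason no library could be left out. Depth is unknown, so no limit on genes at low levels can be given.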
